A study of Mus musculus with 90 samples.

Results

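The 35 genes described here encode the enzymes, carriers and peroxisomal proteins that take fatty acids through mitochondrial and peroxisomal oxidation. They were chosen by symbol, as a fixed list of pathway genes that are columns of both deposited tables, and all 35 were found among the 18223 genes of the tables. They fall into 7 roles: 3 genes of fatty acid activation and binding, 6 of the carnitine shuttle, 10 of the mitochondrial oxidation spiral, 3 of electron transfer, 2 ketone body enzymes, 9 of peroxisomal oxidation and 2 of peroxisome biogenesis. Liver RNA was sequenced from 90 female Diversity Outbred (J:DO) mice, an outbred stock whose animals differ from each other in their mix of founder genomes, and each animal gave 1 library. The control group was 41 mice given the vehicle, sterile distilled water, by mouth, and the treated group was 49 mice given zileuton, an inhibitor of 5-lipoxygenase used against asthma, at 300 mg per kg by mouth. Both groups were dosed once a day for 7 days, were 6 to 20 weeks old and were assigned at random per the labels. The series is titled as a study of zileuton liver toxicity, and the treatment comparison is the one its labels imply.

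Mitochondrial oxidation starts when a fatty acid is joined to coenzyme A and passed through the inner membrane as a carnitine ester, a step gated by carnitine palmitoyltransferase I. Each turn of the spiral then oxidises, hydrates, oxidises again and cleaves the chain to release acetyl-CoA, which the liver can turn into ketone bodies. Peroxisomes shorten very long and branched chains by a parallel set of enzymes. In rodent liver many genes of both routes are known targets of the nuclear receptor PPARalpha, which binds, as a dimer with RXR, a direct repeat of a short core spaced by a single base.

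Promoter sequence was looked at for that repeat, written here as AGGTCANAGGTCA and searched on both strands of the 250 bases before each RefSeq gene start (GRCm38.p6). RefSeq promoters were matched for 27 of the 35 genes, giving 30 promoters. With at most 1 mismatch over the 12 fixed letters the repeat stood in 0.484% of all 32851 promoters and in that of 1 member, Fabp1. With at most 2 mismatches it stood in 3.24% of all promoters and in those of 2 members, Fabp1 and Etfa, and with at most 3 in 21.3% of all promoters and in those of 7 members. The 3 sequences below are shown because they hold the 2 closest matches and the gene with the largest treatment difference of the 35, and capitals mark the match. The Fabp1 stretch is chr6:71199629-71199826 on the + strand, cut before the first annotated Fabp1 exon, and its match lies on the opposite strand, 67 to 55 bases before the RefSeq start. The Etfa stretch is chr9:55512244-55512493 on the - strand, with its match on the opposite strand 77 to 65 bases before the start. The Acaa1b stretch is chr9:119157094-119157343 on the - strand, whose best window had 4 mismatches and is not marked.
Fabp1: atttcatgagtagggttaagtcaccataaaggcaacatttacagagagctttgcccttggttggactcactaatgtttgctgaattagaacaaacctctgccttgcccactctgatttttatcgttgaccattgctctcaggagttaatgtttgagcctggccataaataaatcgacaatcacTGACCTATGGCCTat
Etfa: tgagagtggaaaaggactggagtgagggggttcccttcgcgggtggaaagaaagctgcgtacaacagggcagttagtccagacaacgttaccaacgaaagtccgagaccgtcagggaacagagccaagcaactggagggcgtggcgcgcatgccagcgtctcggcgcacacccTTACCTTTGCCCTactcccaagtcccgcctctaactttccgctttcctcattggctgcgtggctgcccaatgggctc
Acaa1b: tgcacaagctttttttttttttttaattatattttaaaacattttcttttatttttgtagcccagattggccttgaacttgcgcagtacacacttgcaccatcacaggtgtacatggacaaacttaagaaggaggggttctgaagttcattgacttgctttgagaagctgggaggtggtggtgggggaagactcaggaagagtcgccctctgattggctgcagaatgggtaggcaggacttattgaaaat
Of these 3 genes, Fabp1 and Acaa1b rose with zileuton and Etfa did not pass the test, as given below. The single core AGGTCA, which is part of the repeat, stood in 14% of all promoters and in those of 4 members, Acadm, Acadvl, Cpt1a and Fabp1. The E-box CACGTG, the element of the clock factors, stood in 6.02% of all promoters and in those of 0 members. These matches describe letters in a short window and say nothing about binding.

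Library totals ran from 13064928 to 41360187 estimated counts with vehicle and from 12664579 to 38865109 with zileuton. Levels are given as CPM, the counts of a gene scaled to a common library size with TMM factors, and a difference is called where the adjusted p of edgeR's quasi-likelihood test, over all 13248 genes tested, was under 0.05. Hepatocyte markers (Alb, Apoa1, Ttr, Serpina1a, Cyp2e1 and Ass1) were high in every library, with a summed level of 85630 to 174700 CPM with vehicle and 70460 to 162100 CPM with zileuton. Of these 6, Alb (-0.20), Apoa1 (-0.30), Ttr (-0.24) and Ass1 (-0.43) were called lower and Cyp2e1 (0.25) higher with zileuton on the log2 scale, and the median sum went from 122300 to 108600 CPM. Over the marker lists of 9 cell types, 37 of 54 genes were tested, 2 were called higher and 9 lower. Outside the hepatocyte list these were Col1a1 (0.47), a collagen of stellate cells, and, lower, Sox9 (-0.86), Cela1 (-0.999), Cd3g (-0.49), Dcn (-0.21) and Clec4g (-0.18). The part of these markers' changes in the results below was not tested. In whole liver RNA, fewer cells of a type and less RNA per cell cannot be told apart. Skeletal muscle markers (Acta1, Ckm, Myh4, Mylpf, Tnnt3 and Tnni2) summed to 2806 CPM in vehicle replicate 8 and 1830 CPM in zileuton replicate 24, against at most 1.18 CPM in each of the other libraries. The animal numbers were split here into 8 runs of 50 consecutive numbers, a grouping that the labels do not give. Only part of the numbers of a run are among the animals of the series. Within a run the vehicle animals stood at positions 13 to 20 and the zileuton animals at positions 25 to 50. The labels do not say what the order stands for, and treatment and position cannot be told apart. Clock genes also differed between the groups: Arntl (Bmal1), a core clock activator, had a median of 25.0 CPM with vehicle and 4.94 CPM with zileuton. A clock score was formed per animal from scaled log2 CPM, as the mean over 11 clock genes of the opposite phase minus the mean over 5 genes that peak with Bmal1. It was -1.32 ± 1.27 (SD, n = 41) with vehicle and 1.11 ± 1.17 (SD, n = 49) with zileuton. Its range was -2.85 to 2.61 with vehicle and -2.16 to 3.03 with zileuton, so the groups overlapped but were centred apart, and the counts over the 35 genes and over the other oxidation genes are therefore also given with this score and with position in the model.

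With zileuton, relative mRNA levels were higher for most genes of peroxisomal oxidation and of the mitochondrial spiral and for both genes of peroxisome biogenesis, while electron transfer and ketone body enzyme genes gave no call. Of the 35 genes, all of which were tested, 19 rose, 1 fell and 15 did not pass. Among all 13248 genes tested, 29.3% were called in either direction, 14.4% higher and 14.8% lower. The median log2 fold change was 0.21 over the 35 genes and -0.01 over all genes tested, and 28 of the 35 values were above 0. For no gene did the 2 groups separate: each zileuton range overlapped the vehicle range.

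**Figure D1:**
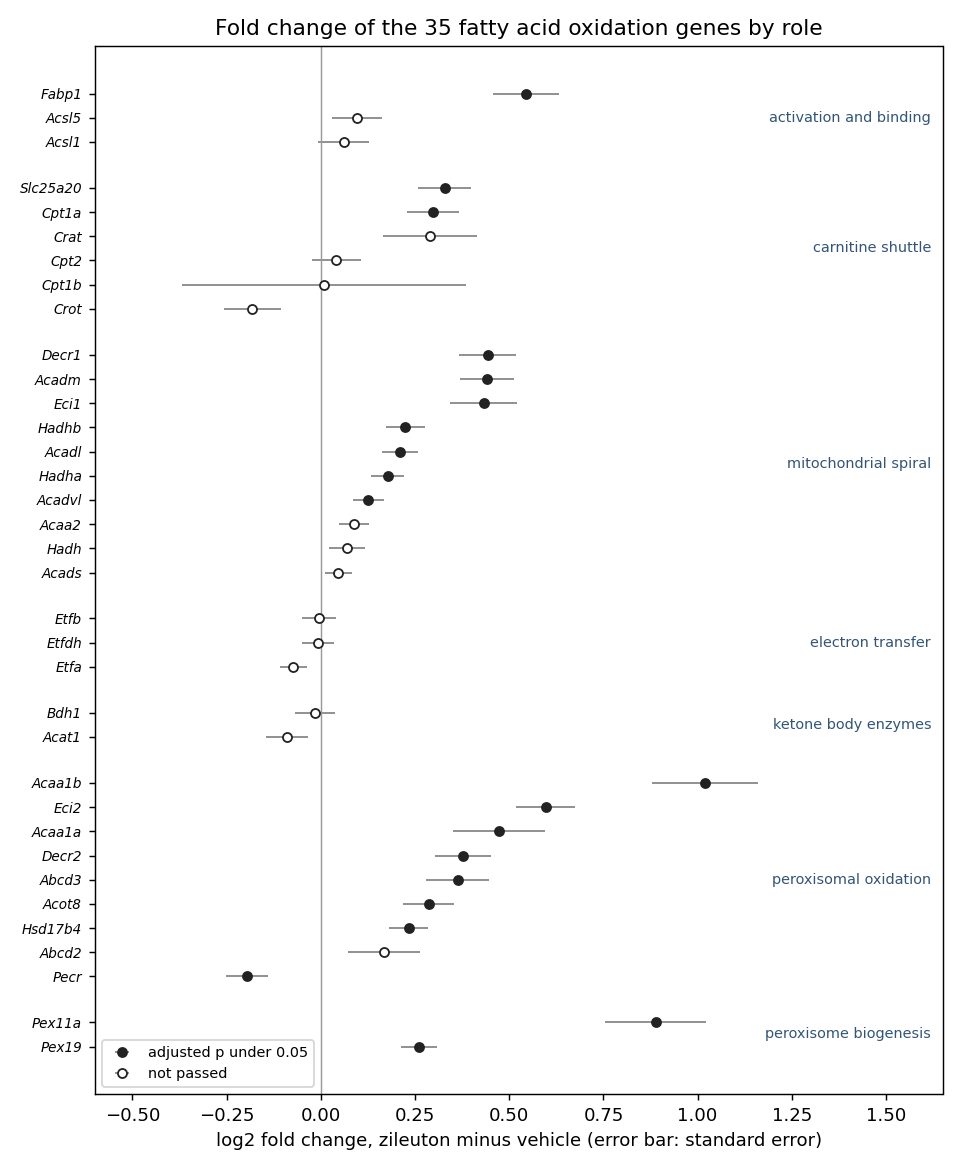
Log2 fold change (x axis, zileuton minus vehicle) of each of the 35 genes (y axis), grouped by role, with the standard error as the bar; filled points passed an adjusted p of 0.05 and open points did not. Peroxisomal and biogenesis genes reach furthest to the right, up to 1.02 for Acaa1b, electron transfer and ketone body enzymes sit between -0.09 and -0.01, and Pecr at -0.20 is the filled point left of 0.

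Of the 3 genes of activation and binding, 1 rose. Fabp1, on chromosome 6, encodes the liver fatty acid binding protein that carries fatty acids through the cytosol and was the most abundant of the 35 per length of its merged exons, at a vehicle mean of 5221 CPM per kb. Acaa2, at 564, and Acaa1b, at 543 CPM per kb, followed, and their order depends on which length is used. Its level was 1630 CPM at the lowest, 2708 at the median and 6297 at the highest with vehicle, and 1822, 4001 and 6760 CPM with zileuton. The groups overlapped over most of their range, but 44 of 49 zileuton animals lay above the vehicle median, and the log2 fold change was 0.55 ± 0.088 (SE; edgeR adjusted p = 6.87e-07). The long-chain acyl-CoA synthetases Acsl1 and Acsl5, which join the fatty acid to coenzyme A, did not pass, with log2 fold changes of 0.06 and 0.10.

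The carnitine shuttle moved in part: 2 of its 6 genes rose, those of its first enzyme and of its carrier. Cpt1a, the liver form of carnitine palmitoyltransferase I and the gate of mitochondrial entry, ran from 171 over a median of 249 to 468 CPM with vehicle and from 162 over 310 to 468 CPM with zileuton. The zileuton animals as a group sat higher, 38 of 49 above the vehicle median, yet none exceeded the highest vehicle animal. The log2 fold change was 0.30 ± 0.069 (SE; edgeR adjusted p = 4.03e-04). Slc25a20, the carnitine-acylcarnitine carrier of the inner membrane, ran from 63.1 over 90.1 to 157 CPM with vehicle and from 70.0 over 113 to 201 CPM with zileuton. Its log2 fold change was 0.33 ± 0.070 (SE; edgeR adjusted p = 1.24e-04), with 40 of 49 zileuton animals above the vehicle median.

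The other shuttle genes did not pass. Cpt2, which hands the chain back to coenzyme A inside the mitochondrion, had a log2 fold change of 0.04. Crat, the short-chain carnitine acetyltransferase, stood at 0.29 (edgeR adjusted p = 0.0667), and Crot, the peroxisomal octanoyltransferase, at -0.18 (edgeR adjusted p = 0.061). Without vehicle replicate 37, Crat stood at 0.32 (edgeR adjusted p = 0.0382), and without vehicle replicate 15, Crot stood at -0.20 (edgeR adjusted p = 0.0385). Refits without a single animal were run for vehicle replicates 8, 9, 15 and 37 and for no zileuton animal. Cpt1b, the muscle form of the gate enzyme, was the least abundant of the 35, with medians of 0.882 CPM with vehicle and 0.989 CPM with zileuton and 0 in the lowest library of each group. Its highest vehicle value, 26.4 CPM, belonged to replicate 8, the library with muscle transcripts, while the other such library, zileuton replicate 24, held 6.19 CPM against a zileuton maximum of 6.62 CPM. The log2 fold change of Cpt1b was 0.01 ± 0.378 (SE) over all animals and 0.79 ± 0.335 (SE; edgeR adjusted p = 0.0641) without vehicle replicate 8. With both muscle-bearing libraries left out it was 0.69 ± 0.331 (SE; edgeR adjusted p = 0.105). Counts of Cpt1b are uncertain in any case, since 93.0% of the 50-base windows of its longest transcript also occur in Gm44502, an annotated gene on the same strand that overlaps it.

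In the mitochondrial spiral 7 of 10 genes rose, 0 fell and all 10 log2 fold changes were above 0, with a median of 0.19. Decr1 and Eci1, auxiliary enzymes that let unsaturated chains re-enter the spiral, and Acadm, the medium-chain acyl-CoA dehydrogenase, moved most. Decr1 ran from 124 over 165 to 327 CPM with vehicle and from 126 over 242 to 405 CPM with zileuton. Its zileuton animals were shifted upward, 43 of 49 above the vehicle median, at a log2 fold change of 0.44 ± 0.075 (SE; edgeR adjusted p = 1.90e-06). Acadm ran from 223 over 342 to 585 CPM with vehicle and from 266 over 445 to 977 CPM with zileuton. Here 44 of 49 zileuton animals exceeded the vehicle median and 6 exceeded the vehicle maximum, at a log2 fold change of 0.44 ± 0.072 (SE; edgeR adjusted p = 7.89e-07).

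Hadha and Hadhb, the alpha and beta subunits of the trifunctional protein of the inner membrane, are neighbours on chromosome 5 that are read in opposite directions, and both rose slightly. Hadha ran from 208 over 298 to 412 CPM with vehicle and from 258 over 343 to 492 CPM with zileuton, at a log2 fold change of 0.18 ± 0.045 (SE; edgeR adjusted p = 0.00128). Hadhb rose by 0.22 on the log2 scale, and 62.4% of its 50-base windows also occur elsewhere, mostly in the genes Gm13910 and Gm9108, so its counts may be split. Eci1 rose by 0.43, Acadl, the long-chain dehydrogenase, by 0.21, and Acadvl, the very-long-chain dehydrogenase, by 0.13 on the log2 scale. The exons of Acadvl overlap those of Dvl2 on the other strand over 42.9% of their bases, and the strand setting of the counting is not known from the sources used here. Acads, Hadh and Acaa2, which act on short chains or close the spiral as the thiolase, stood at 0.05, 0.07 and 0.09 and did not pass.

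The 3 electron transfer genes showed no call. Etfa and Etfb, the subunits of the flavoprotein that takes electrons from the acyl-CoA dehydrogenases, had log2 fold changes of -0.07 ± 0.036 and -0.01 ± 0.045 (SE), and Etfdh, which passes the electrons to ubiquinone, -0.01 ± 0.042 (SE). Etfb had a median of 334 CPM in both groups. Of its 50-base windows 67.3% also occur in Gm45233, which overlaps it on the same strand. The ketone body enzymes were called in neither direction: Bdh1, which makes hydroxybutyrate from acetoacetate, had a log2 fold change of -0.02 ± 0.053 and Acat1, the mitochondrial thiolase that joins acetyl-CoA units, -0.09 ± 0.056 (SE).

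In peroxisomal oxidation 7 of 9 genes rose, among them Acaa1b with the largest difference of the 35, 1 fell and the median log2 fold change was 0.36. Acaa1b and Acaa1a are paralogs on chromosome 9 that encode the peroxisomal thiolase, the enzyme of the last step. Acaa1b (chr9:119148023-119157093, GRCm38) ran from 298 over 1020 to 2939 CPM with vehicle and from 750 over 2139 to 4419 CPM with zileuton. The vehicle median thus lay near the low end of the zileuton animals, 45 of 49 of which exceeded it, and 11 exceeded the vehicle maximum. The log2 fold change was 1.02 ± 0.140 (SE; edgeR adjusted p = 1.17e-08), a fold of 2.03.

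Acaa1a (chr9:119339676-119350299) ran from 115 over 224 to 532 CPM with vehicle and from 163 over 290 to 1173 CPM with zileuton. Its groups overlapped more than those of Acaa1b, with 38 of 49 zileuton animals above the vehicle median, and the log2 fold change was 0.47 ± 0.121 (SE; edgeR adjusted p = 0.00147). Of the 50-base windows of Acaa1b 46.2% and of those of Acaa1a 35.1% occur in another gene, in each case mostly in the other paralog, so part of either value could belong to the other. Eci2, the peroxisomal enoyl-CoA isomerase, ran from 60.7 over 127 to 194 CPM with vehicle and from 109 over 173 to 348 CPM with zileuton. In Eci2 20 of 49 zileuton animals stood above every vehicle animal, the highest such count among the 35 genes, and the log2 fold change was 0.60 ± 0.077 (SE; edgeR adjusted p = 1.98e-09).

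The other peroxisomal genes that rose were Decr2, the peroxisomal dienoyl-CoA reductase, by 0.38 on the log2 scale, Abcd3, the main membrane carrier of long-chain acyl-CoA, by 0.36, Acot8, an acyl-CoA thioesterase, by 0.29, and Hsd17b4, the bifunctional enzyme for branched chains, by 0.23. Of the 50-base windows of Acot8 17.7% also occur in Snx21, and of those of Eci2 11.3% in Gm16984 or Eci3. Abcd2, a very-long-chain carrier and paralog of the adrenoleukodystrophy transporter, ran from 26.96 over 74.7 to 142 CPM with vehicle and from 44.4 over 81.5 to 149 CPM with zileuton. The spread within each of its groups exceeded the shift between them, at a log2 fold change of 0.17 ± 0.096 (SE; edgeR adjusted p = 0.187). Pecr, the peroxisomal trans-2-enoyl-CoA reductase, which works in chain elongation rather than oxidation, was the single member that fell. It ran from 132 over 227 to 361 CPM with vehicle and from 134 over 206 to 254 CPM with zileuton. Only 11 of 49 zileuton animals lay above the vehicle median of Pecr, and its log2 fold change was -0.20 ± 0.056 (SE; edgeR adjusted p = 0.00451).

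Both genes of peroxisome biogenesis rose. Pex11a (chr7:79735957-79743131, GRCm38), the peroxin that drives peroxisome elongation and division and that responds to peroxisome proliferators in rodents, ran from 7.75 over 16.2 to 74.5 CPM with vehicle and from 14.1 over 31.3 to 93.6 CPM with zileuton. The zileuton median was close to the top of most vehicle animals, 46 of 49 zileuton animals exceeded the vehicle median, and 1 vehicle animal stood alone at 74.5 CPM. The log2 fold change was 0.89 ± 0.134 (SE; edgeR adjusted p = 1.31e-07). Pex19, the receptor that brings membrane proteins to the peroxisome, ran from 87.4 over 102 to 155 CPM with vehicle and from 81.8 over 118 to 176 CPM with zileuton. Its shift was small but was seen in 37 of 49 animals relative to the vehicle median, at a log2 fold change of 0.26 ± 0.048 (SE; edgeR adjusted p = 1.05e-05).

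**Figure D2:**
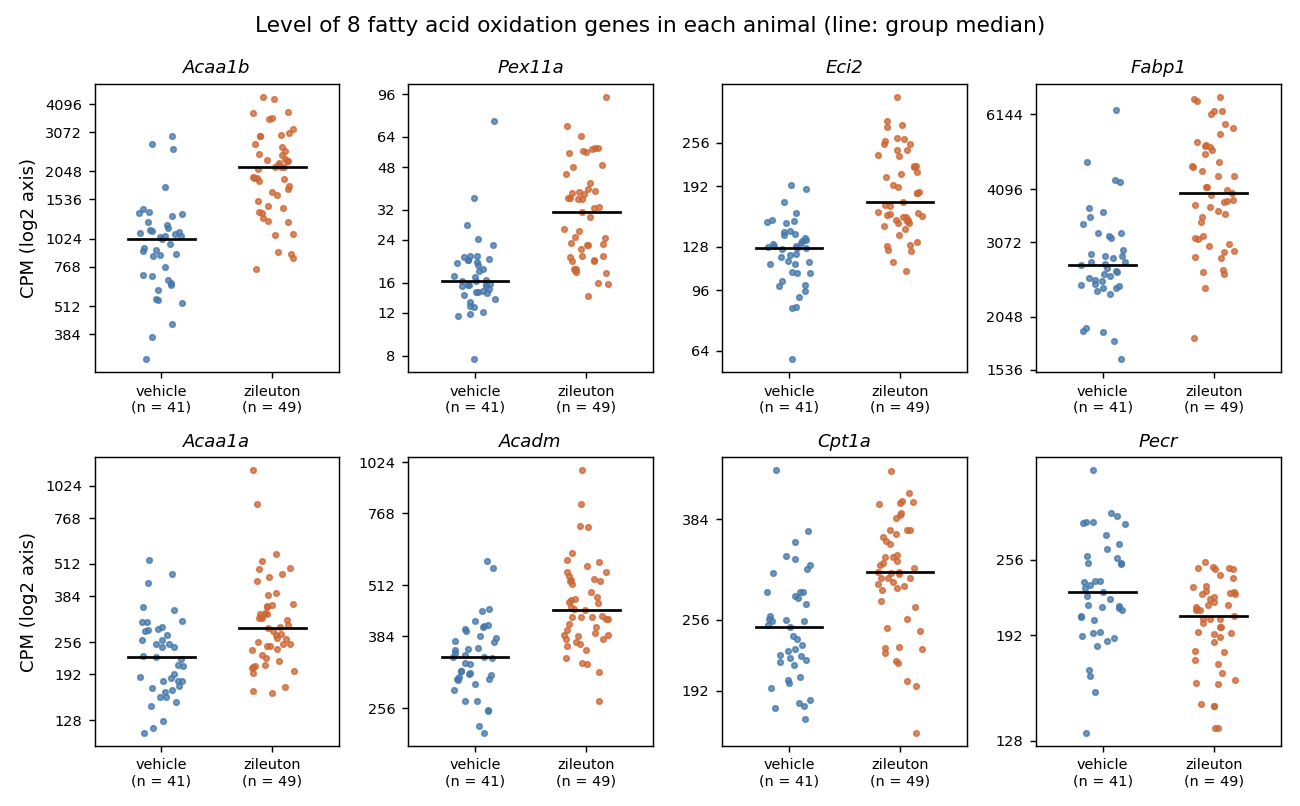
Level in CPM (y axis, log2 spacing, a separate scale per panel) of 8 of the genes in each animal, 41 vehicle animals in blue and 49 zileuton animals in orange, with the group median as a line. The Acaa1b median moves from 1020 to 2139 CPM and that of Pex11a from 16.2 to 31.3 CPM, Pecr moves the other way from 227 to 206 CPM, and the groups overlap in every panel.

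With the clock score in the model the number of genes that rose was 2 of 35, Acaa1b and Eci2, and 0 fell, while 1.8% of all genes tested were called higher. Acaa1b then had a log2 fold change of 0.65 (edgeR adjusted p = 0.0215) and Eci2 of 0.35 (edgeR adjusted p = 0.0398). The median over all 35 genes went from 0.21 without the score to 0.04 with it. Over the 19 genes that rose, which were picked by the fit without the score, it went from 0.36 to 0.16, and 11 of the 19 were below 50% of their size. Pex11a stood at 0.54 (SE 0.171, edgeR adjusted p = 0.0596) and Fabp1 at 0.34 (SE 0.12, edgeR adjusted p = 0.101). Cpt1a, at -0.07 (SE 0.0816), and Acaa1a, at -0.05 (SE 0.155), were the 2 of the 19 below 0.

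With the position within the run in the model, 1 of 35 genes rose, Eci2 at 0.57 (edgeR adjusted p = 0.0483), and 0 fell, while 1.25% of all genes tested were called higher. Acaa1b stood at 0.80 (SE 0.29, edgeR adjusted p = 0.134) and Pex11a at 0.83 (SE 0.283, edgeR adjusted p = 0.11). Fabp1 stood at 0.63 (SE 0.187, edgeR adjusted p = 0.0543). The median was 0.15 over all 35 genes and 0.23 over the 19, of which Cpt1a, at -0.13 (SE 0.141), was the single value below 0. Since position and treatment cannot be told apart, that fit leans on the assumption of a straight line across the gap between the groups' positions.

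**Figure D3:**
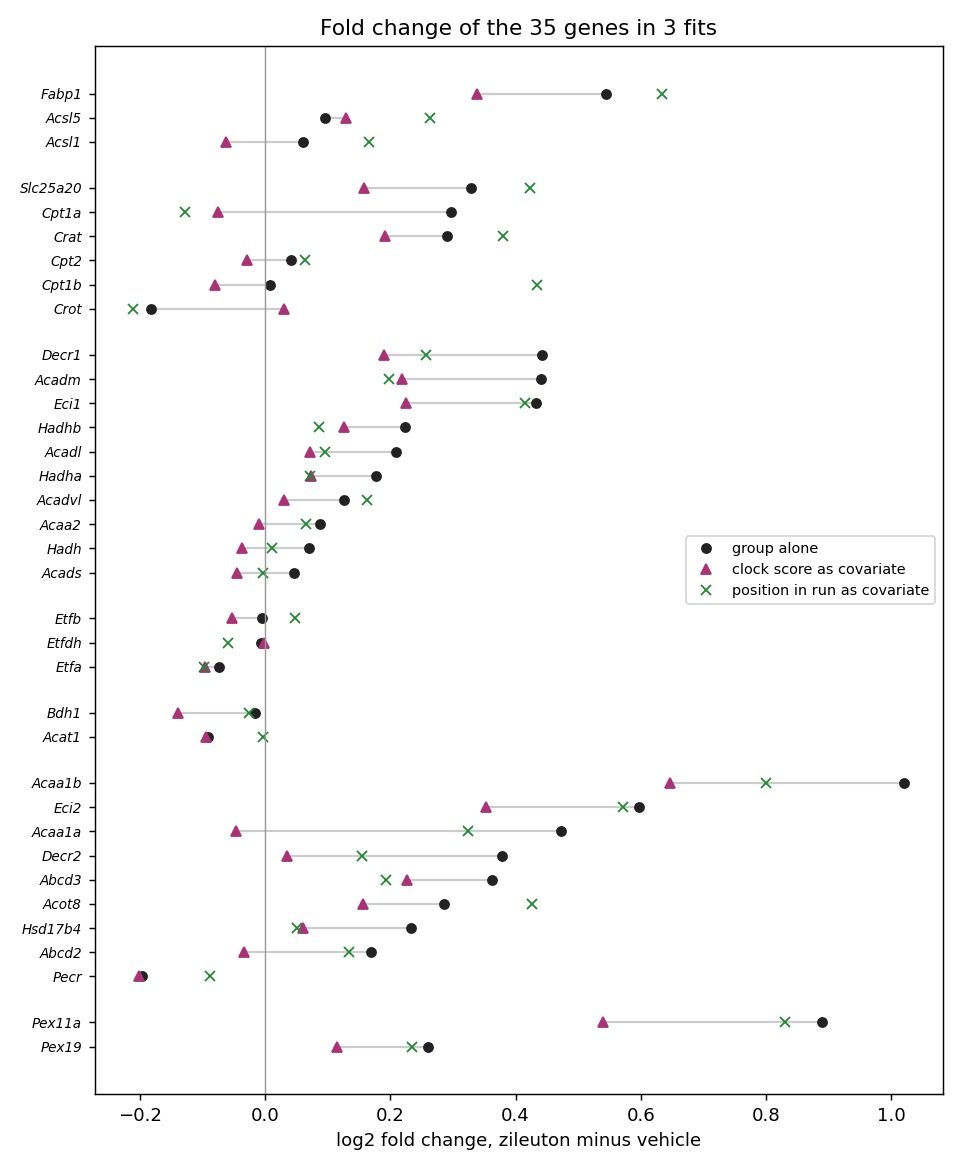
Log2 fold change (x axis, zileuton minus vehicle) of the 35 genes (y axis, grouped by role as before) with the treatment alone in the model, with the clock score added and with the position in the run added. Acaa1b goes from 1.02 to 0.65 with the score, Eci2 from 0.60 to 0.35, and Cpt1a crosses 0 under both, by less than its SE.

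Within the runs, which held 3 to 6 vehicle and 2 to 12 zileuton animals each, 14 of the 35 genes had a higher zileuton mean in all 8 runs and 20 in at least 7. Of all genes tested, 7.1% did so in all 8 runs and 16.2% in at least 7. The 14 are among the 19 genes that rose, which were called on the same animals, and of all genes called higher 44.8% were higher in all 8 runs. With run as a factor in the model 21 genes rose, Crat (0.30, edgeR adjusted p = 0.0284) and Acaa2 (0.10, edgeR adjusted p = 0.0403) in addition to the 19, and 1 fell. The difference in mean log2 CPM of Acaa1b was 1.496, 2.14, 1.04, 0.42, 1.28, 1.26, 0.16 and 1.21 in runs 1 to 8. That of Eci2 was 0.90, 0.99, 0.36, 0.21, 0.92, 1.02, 0.18 and 0.60. Both were smallest in runs 4 and 7. Cpt1a took another course, with 0.39, 0.38, 0.32, 0.18, 0.25, 0.52, 0.61 and 0.26, highest in run 7.

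Over all 35 genes the median difference was 0.03 in run 7, with 21 of 35 values above 0, 0.05 in run 4, with 22 of 35, and 0.16 in run 3, against 0.23 to 0.43 in the other 5 runs. Over the 19 genes that rose it was 0.18 in run 7, 0.07 in run 4 and 0.22 in run 3, against 0.38 to 0.67 in the other 5. The groups' mean clock scores differed by 1.68 in run 4, 4.18 in run 7 and 1.56 in run 3, and by 2.35 to 3.36 in the other 5. Run 7, with 3 vehicle and 4 zileuton animals, had the widest clock difference and a small difference of the oxidation genes. Runs 3 and 4 had the smallest clock differences and also small differences of the oxidation genes. A relation between the 2 over the runs was not tested.

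**Figure D4:**
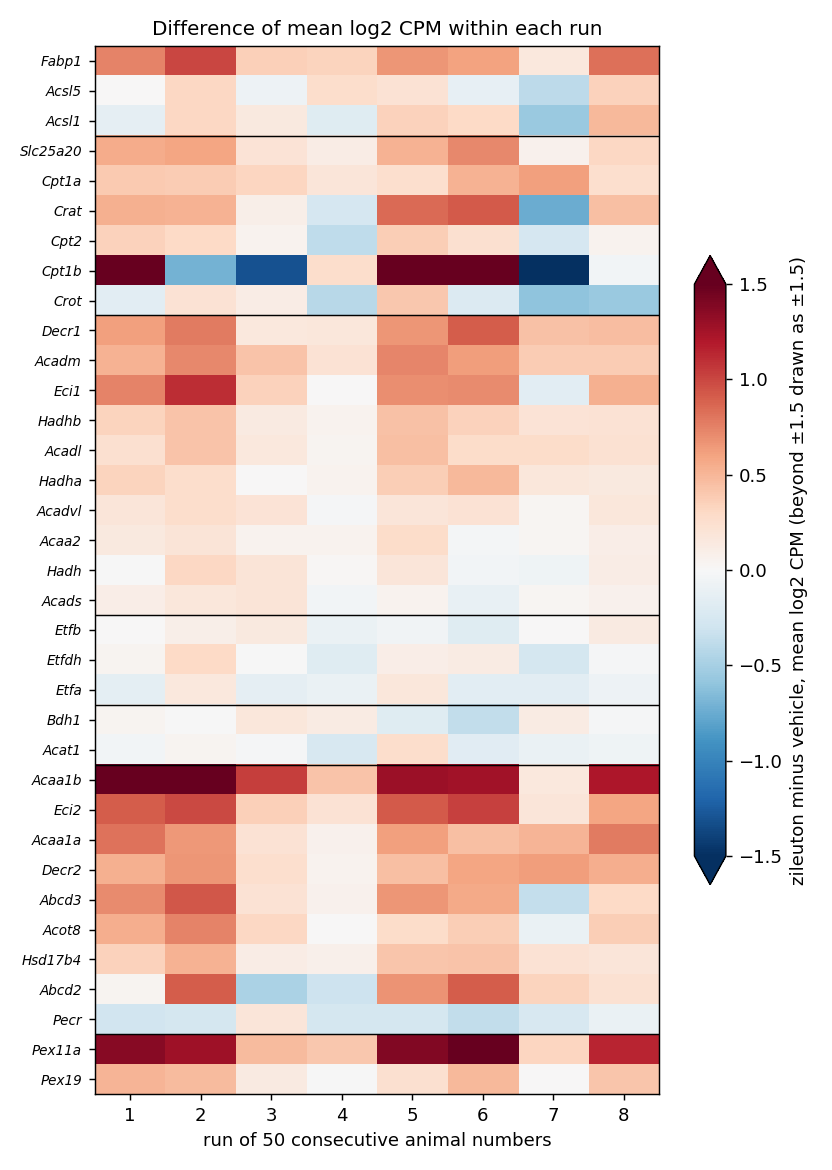
Difference in mean log2 CPM between zileuton and vehicle animals (colour, red higher with zileuton, values beyond 1.5 drawn as 1.5) of each of the 35 genes (rows, by role) in each of the 8 runs of 50 animal numbers (columns). Acaa1b and Pex11a are red throughout, runs 4 and 7 are palest for the 19 genes that rose, and Cpt1b swings from -2.74 to 2.35.

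Beyond the 35 genes, 107 other genes of fatty acid oxidation and its control were measured, of which 104 were tested, 37 rose, 14 fell and 53 did not pass, with a median log2 fold change of 0.07. In the model with the clock score 5 rose and 1 fell, and in that with position 3 rose and 0 fell. The counts by list below are from the model without either, in which 14.4% of all genes tested were called higher and 14.8% lower. Ehhadh, the peroxisomal bifunctional enzyme, ran from 178 over 461 to 2976 CPM with vehicle and from 253 over 1169 to 4461 CPM with zileuton, at a log2 fold change of 1.36 ± 0.181 (SE; edgeR adjusted p = 4.70e-09). With the clock score in the model Ehhadh stood at 1.00 (edgeR adjusted p = 0.00484). Of the 16 other peroxisomal genes 7 rose and 3 fell, the latter led by Agxt, which detoxifies glyoxylate, at -0.30, and Hacl1, which cleaves chains in alpha oxidation, at -0.19. Of 14 other peroxins tested 7 rose, led by Pex26 at 0.26 and Pex3 at 0.20, and 1 fell, Pex2 at -0.25.

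Among 21 other mitochondrial oxidation genes tested 5 rose and 3 fell. Acsm3, a medium-chain synthetase, rose by 0.42 and Acad11, an acyl-CoA dehydrogenase, by 0.31 on the log2 scale, while Eci3, a paralog next to Eci2, stood at -0.74 and Pccb, a subunit of propionyl-CoA carboxylase, at -0.19. Of 6 genes of carnitine supply 3 rose, with Slc22a5, the carnitine importer, at 0.78 and its neighbour Slc22a21 at 0.45. Among 7 other synthetases and carriers tested 3 rose, led by Cd36, the fatty acid translocase, at 0.66 and Acsl4 at 0.44, and 1 fell, Slc27a5 at -0.15. Of 8 genes of malonyl-CoA control, the metabolite that inhibits the gate enzyme, the AMPK subunits Prkaa2 (0.21) and Prkaa1 (0.11) rose, while Acacb, the synthase at the mitochondrion (0.30, edgeR adjusted p = 0.0735), and Mlycd, the decarboxylase (0.04), did not pass.

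Among 18 regulators of oxidation genes 6 rose, of which Nr1d1 is also part of the clock score, and 2 fell. Lpin1 and Ppargc1b, both known coactivators of oxidative genes, rose by 0.99 and 0.76 on the log2 scale, and the nuclear receptor gene Ppard stood at -1.52 (edgeR adjusted p = 1.90e-11) and the corepressor gene Nrip1 at -0.22. With the clock score in the model Ppard stood at -0.15 (edgeR adjusted p = 0.674). Ppara, the receptor named above, had a log2 fold change of 0.18 ± 0.073 (SE; edgeR adjusted p = 0.0514), and Ppargc1a of 0.23 ± 0.109 (SE; edgeR adjusted p = 0.104). The 9 fasting genes did not move as one: 3 rose and 3 fell. Vnn1, a pantetheinase that recycles a part of coenzyme A, ran from 3.99 over 30.1 to 112 CPM with vehicle and from 9.69 over 93.5 to 399 CPM with zileuton, at a log2 fold change of 1.74 ± 0.223 (SE; edgeR adjusted p = 1.57e-09). It stood at 1.36 with the clock score (edgeR adjusted p = 0.00325) and at 1.54 with position (edgeR adjusted p = 0.0362). Cidec, a lipid droplet protein, rose by 1.13. Fgf21, the fasting hormone, had a log2 fold change of -1.997 ± 0.255 (SE; edgeR adjusted p = 1.29e-09), and Pdk4, the kinase that turns off pyruvate oxidation, of -0.997 ± 0.195 (SE; edgeR adjusted p = 2.88e-05). With the clock score these 2 stood at -1.12 and -0.04 and did not pass.

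Cpt1a and Pdk4, both known to respond to fasting and to PPARalpha, were compared across animals within each group, as were Acaa1b and Cyp4a14, a microsomal omega-hydroxylase and a marker of peroxisome proliferators. Acaa1b followed Cyp4a14 in both groups, with Pearson's r = 0.60 over 41 vehicle animals (permutation p = 2e-05, adjusted over the 4 relations 4e-05; Spearman's rho = 0.61, permutation p = 5e-05) and r = 0.77 over 49 zileuton animals (permutation p = 1e-05, the smallest that 100000 permutations can give, adjusted 4e-05; rho = 0.74, permutation p = 1e-05). Without the 2 animals of each group farthest from its Acaa1b median, r was 0.57 and 0.72. With run removed it was 0.62 and 0.71, and with the clock score removed 0.53 and 0.77. In the runs with at least 6 animals of a group r ran from 0.50 to 0.72 in 3 runs of vehicle animals and from 0.04 to 0.85 in 5 runs of zileuton animals.

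The values of Cpt1a against Pdk4 were below 0 in both groups, and the test was passed with zileuton. Pearson's r was -0.14 with vehicle (permutation p = 0.392; rho = -0.11, permutation p = 0.482) and -0.39 with zileuton (permutation p = 0.00614, adjusted 0.00819; rho = -0.36, permutation p = 0.0126). Without the 2 animals farthest from the Cpt1a median the zileuton value was -0.29 (adjusted permutation p = 0.0615). The relation with zileuton thus rests in part on those animals. With the clock score removed the zileuton value was 0.05 (permutation p = 0.718), and with run removed -0.35 (adjusted permutation p = 0.018). In the runs of at least 6 animals it ran from -0.57 to 0.49 in 3 runs of vehicle animals and from -0.88 to 0.52 in 5 runs of zileuton animals.

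**Figure D5:**
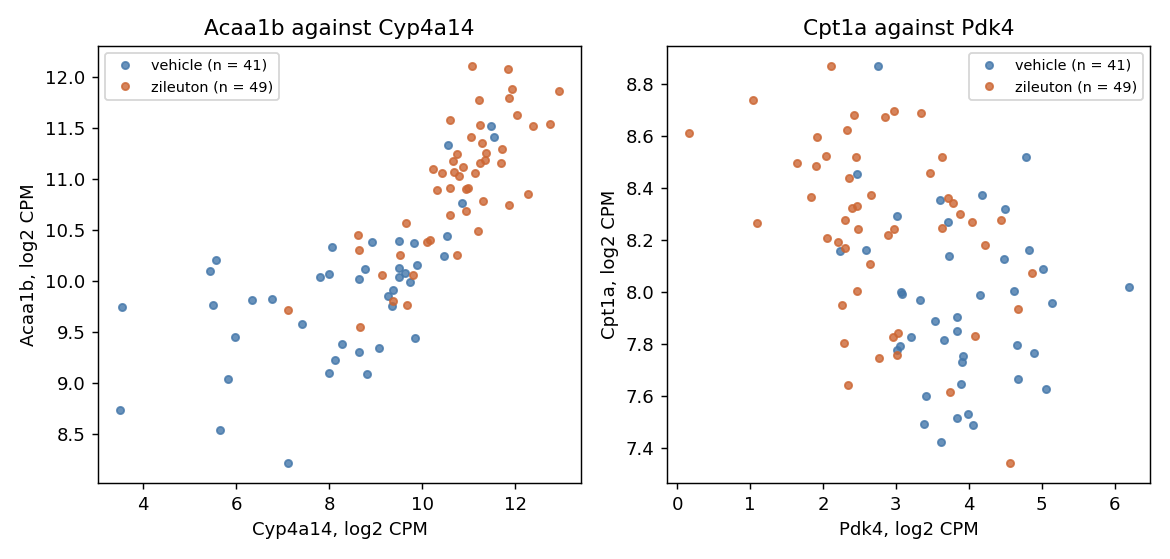
Log2 CPM per animal of Acaa1b against Cyp4a14 (left) and of Cpt1a against Pdk4 (right), 41 vehicle animals in blue and 49 zileuton animals in orange. Acaa1b climbs with Cyp4a14 in both groups (r = 0.60 and 0.77), while Cpt1a shows no upward slope on Pdk4 (r = -0.14 and -0.39).

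The 35 genes mostly varied together between animals of a group, with r above 0 in 517 of 595 pairs with vehicle and 574 with zileuton. Over their 595 pairs the median Pearson's r of log2 CPM was 0.34 with vehicle and 0.54 with zileuton, where all pairs of genes tested had a median of -0.003 in each group, and the points share libraries and depth. Slc25a20 and Eci2 formed the closest pair with vehicle, r = 0.82, and Hadhb and Decr1 with zileuton, r = 0.88. The trifunctional protein subunits Hadha and Hadhb had r = 0.60 and 0.87, and Acaa1a with Acaa1b 0.74 and 0.57, in vehicle and zileuton animals. Fabp1 followed Acaa1b with r = 0.45 and 0.78. Pecr had the lowest median r to the others, -0.04 with vehicle and 0.01 with zileuton, but was not alone in being loosely joined with vehicle. Slc25a20, the gene with the highest median r with vehicle, gave there 0.05 with Cpt1b, 0.09 with Abcd2 and -0.20 with Acsl5. With zileuton these were 0.42, 0.54 and 0.22. Cpt1a with Acadm reached 0.34 with vehicle and 0.30 with zileuton.

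Coat colour also varied between animals, and no member was called by it. Of the 90 animals 63 were agouti, 15 white and 12 black. With edgeR 0 of 35 genes were called in white against agouti animals, where 0.00755% of all genes were called, and 0 in black against agouti, where 0.0453% were. At an unadjusted p under 0.05 there were 2 of 35 in the white animals (Cpt1a and Pex19), where 7.0% of all genes passed that threshold, and 0 in the black, where 6.5% did, and DESeq2 called 0 in both. The spread between animals was compared by limma, using how far each animal's log2 CPM lay from its group's median, in the 34 genes of sufficient level. It called 0 of 34, where 0.0337% of 11857 genes were called, with 7 of the 34 at an unadjusted p under 0.05, a threshold that 8.7% of all genes passed, and the lowest adjusted p, 0.115, for Pex19. The standard deviation of log2 CPM of Pex19 was 0.15 with vehicle and 0.27 with zileuton, and that of Pex11a 0.50 and 0.67.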

How the data were processed

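RNA sequencing of 90 mouse livers was deposited as 2 tables. The authors' raw table holds an estimated count per gene and animal, of which 76.7% were exactly whole; these were rounded. The second deposited table is a signal, the rounded counts divided by 1 size factor per library to within a relative deviation of 5e-06 above 50 counts. Partek, STAR, DESeq2 and the build mm10 are named per the submitters' processing notes; the counting tool and its strand setting were not given in the sources used here. Coordinates are from GENCODE M21 (GRCm38).

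Counts were filtered by filterByExpr, scaled by TMM and tested with edgeR 4.0.16 (quasi-likelihood, robust; 13248 genes; two-sided; Benjamini-Hochberg adjusted p under 0.05); the alternatives used DESeq2 1.42.0 and limma 3.58.1, whose test was also used for spread (mean log2 CPM of at least 0). Relations used 100000 two-sided permutations. Each animal is a replicate. The common biological coefficient of variation was 32.1%, so animals rather than depth set the precision. The scripts were tested on simulated data. Muscle-bearing libraries were left out together as an alternative chosen after seeing the data. The members and lists were chosen with earlier results of these data known. Full values were given to the 2 largest called differences per role plus a fixed set of genes (Cpt1a, Cpt1b, Acadm, Hadha, Acaa1a, Acaa1b, Pex11a, Abcd2); outside the members, to the 2 largest called per list and direction plus a fixed set of genes; some of these are not reported here. Tmlhe was not analysed here.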

Additional observations from a re-analysis of the deposited data

How the results depend on the processing

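The 20 members called were called again, in the same direction, by DESeq2 (19 higher, 1 lower), under size factors or library totals alone in place of TMM, with other filters on low counts, on the authors' normalized values with pseudocounts of 1 and 0.5, with coat colour in the model, and without vehicle replicate 8, vehicle replicate 9, or vehicle replicate 8 with zileuton replicate 24. With the clock score or the position in the run in the model, most calls no longer passed, and standard errors were wider. For Acaa1b the SE was 0.14 with treatment alone, 0.172 with the score and 0.29 with position. For Fabp1 these were 0.0883, 0.12 and 0.187. How much of the loss of calls goes with the wider errors was not tested. With the clock score 2 members were higher and 0 lower, 5 of the other oxidation genes higher and 1 lower, and 384 genes were called in all, against 3878 without it. With position these were 1 and 0, 3 and 0, and 217. Cpt1a fell below 0 under both, at -0.0747 (SE 0.0816) with the score and -0.13 (SE 0.141) with position. Acaa1a did so under the score, at -0.0465 (SE 0.155). Each of these values lay within its SE of 0, and the cause was not tested. The correlation of Cpt1a with Pdk4 within zileuton went from -0.39 to 0.0532 with the clock score removed. The number of members lower was 0 with the letter and number of the description label in the model, 3 under limma-voom with quality weights (Crot and Etfa besides Pecr), and 2 without vehicle replicate 15. The counts of 0 for coat colours and spread were 0 under each alternative run. Leaving out each animal in turn, with no new test, kept the sign of the difference in mean log2 CPM for the 20 members called and for 12 of the 15 others (not for Cpt2, Etfb and Bdh1). No paired analysis was possible because the labels give no replicate number shared between groups and each animal had 1 treatment. Treatment, position and clock genes move together, RNA was taken once, and protein, enzyme activity and liver fat were not analysed here.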

Other observations

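Acaa1b and Eci2, the members that passed with the clock score in the model, were also set against that score across animals within each group, a comparison chosen after seeing the data. Over the 41 vehicle animals Acaa1b gave Pearson's r = 0.40 (permutation p = 0.011, adjusted over these 4 relations 0.0232) and Spearman's rho = 0.10 (permutation p = 0.52). Over the 49 zileuton animals r was 0.18 (permutation p = 0.206) and rho 0.18 (permutation p = 0.211). Eci2 gave r = 0.33 with vehicle (permutation p = 0.0361, adjusted 0.0481; rho = 0.11, permutation p = 0.49) and r = 0.36 with zileuton (permutation p = 0.0116, adjusted 0.0232; rho = 0.34, permutation p = 0.0158). The 2 animals farthest from the median of the gene itself were then left out, picked for each gene and group. The vehicle values were 0.34 for Acaa1b (adjusted permutation p = 0.072) and 0.17 for Eci2 (adjusted permutation p = 0.291). Neither vehicle relation passed without the 2 animals left out for it. The 3 highest Acaa1b values with vehicle were 2939, 2724 and 2580 CPM, in replicates 15, 37 and 28. Their clock scores were 2.17, 0.39 and 2.605, against a vehicle median of -1.55. The animals left out were picked by gene level and not by score. Without the animals left out, the zileuton values were 0.20 for Acaa1b and 0.39 for Eci2. With run removed Acaa1b gave 0.61 with vehicle (adjusted permutation p = 0.00032) and 0.01 with zileuton (0.922), and Eci2 0.46 (0.00682) and 0.24 (0.125). In single runs of at least 6 animals r ran from -0.32 to 0.71 for Acaa1b and from -0.81 to 0.90 for Eci2 with vehicle (3 runs), and from -0.21 to 0.24 and from -0.54 to 0.54 with zileuton (5 runs).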
